A study of Homo sapiens with 4 samples.

Results

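The genes described here encode the 5 subunits of the MuvB core complex (LIN9, LIN37, LIN52, LIN54 and RBBP4), the transcription factors MYBL1 (A-MYB) and MYBL2 (B-MYB), and the transcription factor FOXM1. The 8 genes were chosen by name, and they and the gene lists below were chosen with earlier results of these data known. All 8 were found among the 20263 genes of the count table and passed the filter on low counts. The data are RNA sequencing counts from MDA-MB-231, a human cell line grown from a triple-negative breast tumour. Cells were exposed for 24 h to the compound YW-LF (2 libraries), and the controls (2 libraries) are labelled DMSO, the solvent dimethyl sulfoxide. Both groups grew in medium with 10% fetal bovine serum and antibiotics. By the series title YW-LF derives from ribociclib, which blocks the kinases CDK4 and CDK6. Its dose was not stated in the labels. Whether replicates came from separate cultures is unknown from the labels. The p-values thus reflect the spread among these 4 libraries alone, and that spread may be technical.

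MuvB is a scaffold that changes partners through the cell cycle. In resting and early G1 cells it binds the RB-like proteins p107 and p130, E2F4 or E2F5 and a DP protein, and this assembly, named DREAM, holds cell cycle genes silent. In cycling cells MuvB leaves these repressors, binds B-MYB from S phase and FOXM1 later in G2, and then activates the genes of mitosis through a promoter element called CHR, while E2F sites mark the genes of G1/S and replication.

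Libraries held 34774542 to 40218240 counts, and levels are given as CPM, with library totals adjusted by the trimmed mean of M-values (TMM). On this scale 1 count was worth 0.0199 to 0.0324 CPM. The mesenchymal markers VIM, CD44, EGFR, AXL, CAV1 and MSN lay at 129 CPM or more in every library, whereas the 6 luminal markers differed among themselves. ESR1 and CDH1 were at 0.66 CPM or less, PGR at 0.227 to 1.73, ERBB3 at 1.75 to 6.13, GATA3 at 3.08 to 21.4 and KRT19, a luminal keratin, at 69.0 to 270 CPM. The YW-LF libraries were less alike than the DMSO libraries (Pearson r across 13816 genes of 0.907 and 0.976, genes not being independent replicates), and each result below is therefore given for each library. The share of counts on mitochondrially encoded genes was 3.14% and 6.58% in YW-LF replicates 1 and 2, and 8.68% and 21.7% in DMSO replicates 1 and 2. The part of this difference in the results was not tested, apart from a fit without these genes. Levels of the members are compared with each other only after division by exonic length. The ratios within a library given below are not divided by length and are compared between libraries only.

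Of the 8 genes, 5 were lower in both YW-LF libraries than in both DMSO libraries (MYBL2, MYBL1, RBBP4, LIN54 and LIN9), where 27.8% of all genes tested were, and 1 was higher in both (LIN37), where 28.0% were. FOXM1 and LIN52 overlapped between the groups. The median log2 fold change was -0.91 over the 8 genes and 0.06 over all genes tested. After Benjamini-Hochberg adjustment over all 13816 genes, no member passed the quasi-likelihood test of edgeR at the threshold of 0.05, where 0 genes were called in either direction (0.0%). At an unadjusted p under 0.05, 3 members were lower (MYBL2, MYBL1 and RBBP4), as were 9.01% of all genes, and 1 was higher (LIN37), as were 11.5%. DESeq2 called 2 members lower, MYBL2 and MYBL1, against 4.4% of the genes it tested, and 0 higher, against 5.94%. In bulk RNA, fewer cells that express a gene and less RNA of it per cell cannot be told apart.

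**Figure D1:**
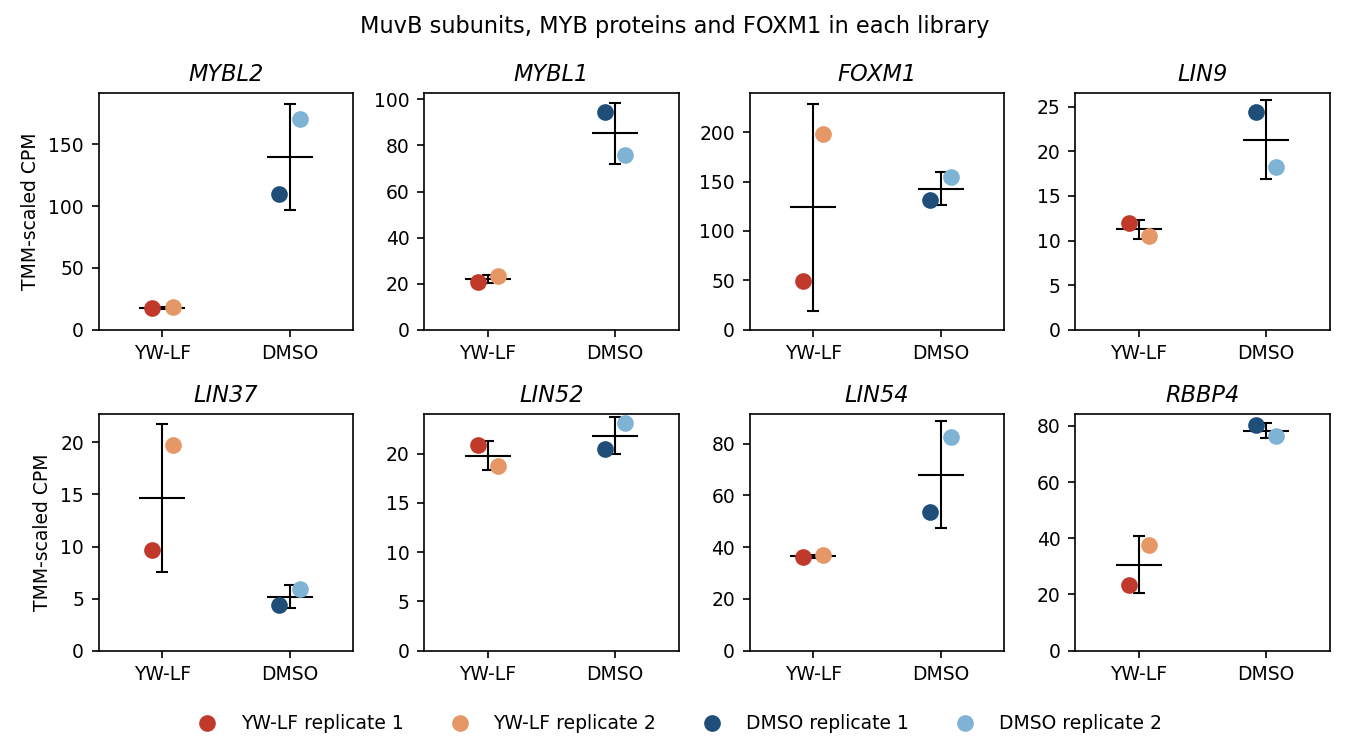
TMM-scaled CPM (y axis, linear and starting at 0 in each panel) of the 8 genes in the YW-LF and DMSO libraries. Points are single libraries and bars show the mean ± SD (n = 2 each); MYBL2 and MYBL1 sit near 20 CPM in both YW-LF libraries and above 75 CPM in both DMSO libraries, whereas FOXM1 spans 49.7 to 198 CPM within YW-LF.

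MYBL2, which joins MuvB in S phase, was 7.91-fold lower and ranked 26 by p among all genes tested (chromosome 20, 43667019 to 43716496 in GRCh38, plus strand). It was at 17.3 and 18.2 CPM in YW-LF replicates 1 and 2, against 110 and 170 CPM in DMSO replicates 1 and 2. On the TMM scale the YW-LF libraries lay closer together than the DMSO libraries did, 1.05-fold apart against 1.55-fold. This order depended on the scaling. With library size as the only scaling, MYBL2 was at 21.6 and 15.2 CPM in YW-LF and 118 and 151 CPM in DMSO. The YW-LF libraries were then the further apart in fold, and the groups still did not overlap. The log2 fold change was -2.98 (SE 0.41, edgeR adjusted p = 0.119), and DESeq2 gave an adjusted p of 1.5e-07.

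MYBL1, the family member best known from the meiotic cells of the testis, was 3.87-fold lower (chromosome 8, 66562175 to 66614247, minus strand). Its level was 20.9 and 23.2 CPM in the YW-LF libraries and 94.8 and 75.9 CPM in the DMSO libraries, with no overlap. The log2 fold change was -1.95 (SE 0.36), with an adjusted p of 0.121 in edgeR and 0.0011 in DESeq2. The third family member, MYB, which is best known from blood progenitors and is no subunit of MuvB, was lower still, at -3.90 (SE 0.72, edgeR adjusted p = 0.121), with only 19 and 7 counts in the YW-LF libraries against 147 and 178 counts in the DMSO libraries. Summed over MYBL1 and MYBL2, the treated libraries held 38.1 and 41.3 CPM, and the DMSO libraries 204 and 246 CPM.

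Whether the 2 MYB genes were called depended on the test and on single libraries. Both were called lower by DESeq2, by edgeR on all genes with at least 1 count in total (adjusted p = 0.022 for MYBL2 and 0.046 for MYBL1) and by edgeR with the replicate number as a block (adjusted p = 0.013 and 0.046). Neither was called with the other scalings, the stricter filter, limma-voom or without the mitochondrially encoded genes. The fit on all genes with at least 1 count called 0.718% of its genes lower and 0.927% higher, and the block fit 1.05% lower and 1.35% higher.

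With YW-LF replicate 1 left out, edgeR called MYBL2 (-2.95), MYBL1 (-1.88), RBBP4 and LIN9 lower and LIN37 higher, where it called 20.7% of all genes lower and 21.0% higher. With YW-LF replicate 2 left out, it called MYBL2 (-3.03), MYBL1 (-2.04), RBBP4 and FOXM1 lower and no member higher, where it called 10.2% of genes lower and 10.1% higher. With DMSO replicate 1 left out, MYBL2 alone was called (-3.26, adjusted p = 0.012), against 0.194% of genes lower and 0.318% higher. With DMSO replicate 2 left out, no member was called, against 0.111% of genes lower and 0.332% higher, and the log2 fold change of MYBL2 was -2.65 (adjusted p = 0.081). Each of these fits has 1 group of a single library, which is assumed to vary like the other group.

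The promoter of MYBL2 is shown because the gene moved the most of the 8. In the sequence from RefSeq (GRCh38.p14), the 60 bases before the annotated start, chr20:43667054-43667113 on the plus strand, read as follows, with capitals on the letters GGCGGGA, as found in many E2F sites, and on TTCAA, the complement of TTGAA, the last letters of the CHR.
MYBL2: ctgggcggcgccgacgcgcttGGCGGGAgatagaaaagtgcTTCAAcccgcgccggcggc
This RefSeq start lies inside the GENCODE 29 span of MYBL2 given above, which begins upstream of it, so the stretch is not upstream of every annotated transcript. These short words were chosen after the sequence had been read. Of all 35116 RefSeq promoter windows of 300 bases, 15.4% hold GGCGGGA and 33.7% hold TTGAA on either strand. The full CHR, TTTGAA, and the E2F words TTTCCCGC, TTTCGCGC, TTTGCCGC and TTTGGCGC are not in the MYBL2 window.

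FOXM1, the forkhead factor of G2 and mitosis, differed between the treated libraries more than between the groups (chromosome 12, 2857681 to 2877155, minus strand). It was at 49.7 and 198 CPM in YW-LF replicates 1 and 2, against 131 and 155 CPM in DMSO replicates 1 and 2. The first YW-LF library thus lay below both DMSO libraries and the second above both. The YW-LF libraries were 3.99-fold apart, a log2 gap of 1.99 that exceeded the gap of 90.2% of genes tested, for which the median was 0.74. The DMSO libraries were 1.18-fold apart. The log2 fold change over all 4 libraries was -0.21 (SE 0.64, edgeR adjusted p = 0.877). With YW-LF replicate 2 left out it was -1.54 (adjusted p = 0.015), and with replicate 1 left out it was 0.47 (adjusted p = 0.187). On the opposite strand, ITFG2 shares 781 exonic bases with FOXM1 in GENCODE 29 and had 271 and 147 counts in the YW-LF libraries and 334 and 396 counts in the DMSO libraries, and it was not stated whether reads were counted by strand.

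Of the 5 core subunits, 3 were lower in both treated libraries, 1 was higher and 1 overlapped. RBBP4, a histone-binding protein that MuvB shares with several chromatin complexes, was at 23.5 and 37.8 CPM in the YW-LF libraries, against 80.3 and 76.5 CPM in the DMSO libraries (chromosome 1, 32651142 to 32686211). Both treated libraries were lower than both controls. The log2 fold change was -1.35 (SE 0.39), with an adjusted p of 0.149 in edgeR and 0.053 in DESeq2. RBBP7, its close relative, stood at 61.7 and 149 CPM in YW-LF and 163 and 147 CPM in DMSO. The 2 genes are similar in sequence, and it was not stated how reads that match both were counted. SYNC, on the opposite strand, shares 1706 exonic bases with RBBP4 and had 95 and 53 counts in the YW-LF libraries and 107 and 73 counts in the DMSO libraries.

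LIN54, the subunit that binds the CHR in DNA, was at 36.1 and 36.9 CPM in the YW-LF libraries and 53.5 and 82.6 CPM in the DMSO libraries (chromosome 4, 82909973 to 83012926). The groups did not overlap. The log2 fold change was -0.90 (SE 0.38, edgeR adjusted p = 0.246), or -0.57 with DMSO replicate 2 left out. LIN9, needed for the activating form of the complex with B-MYB, was at 11.9985 and 10.5 CPM in YW-LF and 24.4 and 18.2 CPM in DMSO (chromosome 1, 226231149 to 226309869). Its log2 fold change was -0.92 (SE 0.40, edgeR adjusted p = 0.254), again with no overlap between the groups.

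LIN52, whose phosphorylation by the kinase DYRK1A favours DREAM, was at 20.9 and 18.7 CPM in YW-LF and 20.5 and 23.2 CPM in DMSO (chromosome 14, 74084796 to 74201235). The groups overlapped, and the log2 fold change of -0.14 (SE 0.37, edgeR adjusted p = 0.854) was smaller than its error. LIN52 passed in none of the 13 fits.

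LIN37, a subunit needed for repression by DREAM, was the one member with higher levels in both treated libraries (chromosome 19, 35748361 to 35754519). It had 9.65 and 19.7 CPM in YW-LF and 4.41 and 5.95 CPM in DMSO, from 165 counts or more in each library. The log2 fold change was 1.502 (SE 0.53, edgeR adjusted p = 0.197, DESeq2 adjusted p = 0.075), and it was 1.93 with YW-LF replicate 1 left out (adjusted p = 0.0025) and 0.89 with replicate 2 left out (adjusted p = 0.106). AD000671.1, a gene on the same strand that shares 752 exonic bases with LIN37 in GENCODE 29, was also higher, at 180 and 103 counts in the YW-LF libraries against 41 and 44 counts in the DMSO libraries. On the opposite strand, AD000671.3 shares 1180 exonic bases with LIN37 and is not in the count table. It was not stated how reads in the shared exons were assigned, or whether by strand, so the level of LIN37 is uncertain.

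**Figure D2:**
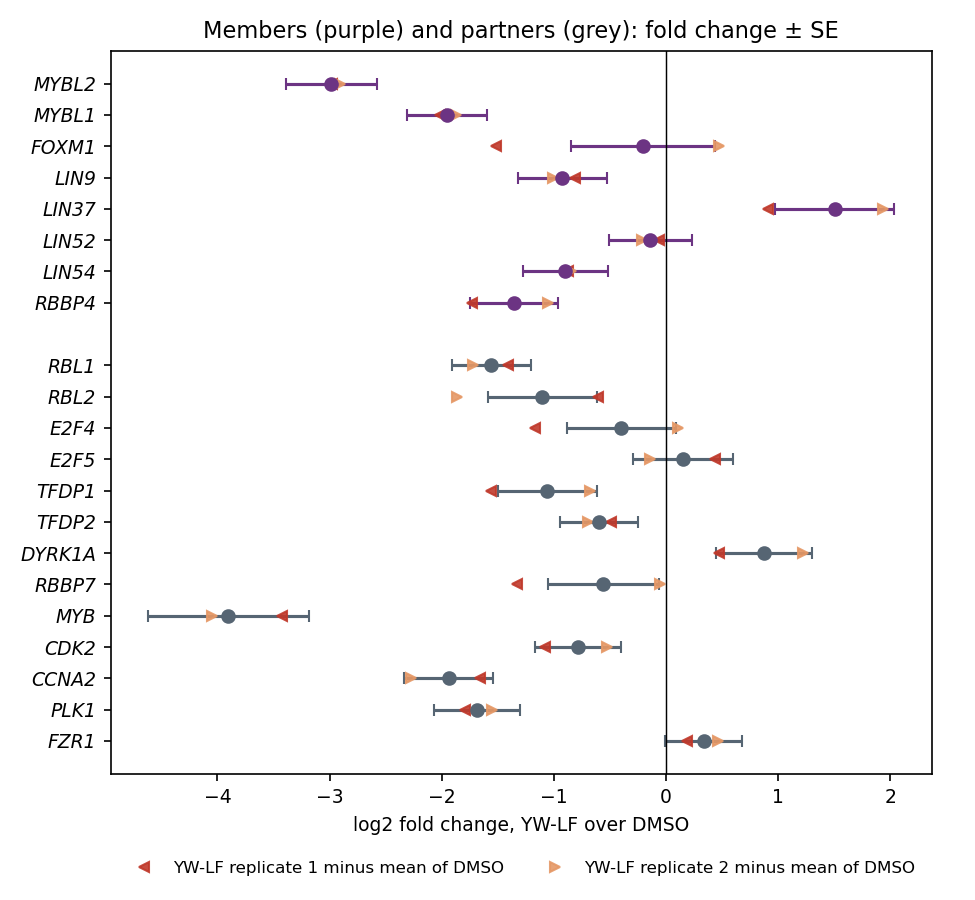
Log2 fold change of YW-LF over DMSO (x axis) for the 8 members and 13 partner genes, as edgeR estimates with bars of ± SE; triangles give each YW-LF library minus the mean of the DMSO libraries. The triangles, from TMM-scaled values, nearly coincide for MYBL2 and LIN54, which depends on the scaling, and lie on opposite sides of 0 for FOXM1.

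Promoter stretches of 4 core subunits are shown next, since their genes differed in direction. All are from RefSeq (GRCh38.p14) and are written on the strand of the gene. For these genes too the RefSeq starts used lie inside the GENCODE 29 spans given above. Capitals mark the CHR in LIN54, the E2F word in LIN52, and CCAAT boxes, read as ATTGG on the other strand, in RBBP4 and LIN37.
LIN54: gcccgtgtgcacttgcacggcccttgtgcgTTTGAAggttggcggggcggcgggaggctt
LIN52: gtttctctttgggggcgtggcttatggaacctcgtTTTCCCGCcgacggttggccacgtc
RBBP4: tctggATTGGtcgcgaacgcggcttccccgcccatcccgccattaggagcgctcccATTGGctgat
LIN37: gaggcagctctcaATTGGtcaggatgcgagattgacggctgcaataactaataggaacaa
These stretches lie at chr4:83010894-83010953 (minus strand), chr14:74084896-74084955, chr1:32651098-32651163 and chr19:35748476-35748535 (plus strand). Of the 6 members with a promoter used here, which together have 11 windows, 3 held a CHR (LIN9, LIN54 and LIN37, the last in its second window) and 1 held an E2F word (LIN52). By window, 4 of 11 held a CHR (36.4%) and 1 of 11 an E2F word (9.09%), against 15.2% and 3.31% of all windows. The shorter word GGCGGGA, marked above in MYBL2, was present in all 6 of these members. It is left in lower case here, as ggcggga in LIN54 and tcccgcc in RBBP4. By window, 8 of 11 held it on either strand (72.7%), against 15.4% of all windows. This word was chosen after the MYBL2 promoter, which is counted here, had been read. Windows of a gene can overlap, and no share by gene was computed over all promoters. These shares therefore describe the members and support nothing further.

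Per kilobase of exon, the order of the genes differed between the groups. In YW-LF libraries FOXM1 was highest, at 25.3 ± 21.4 CPM per kb (mean ± SD, n = 2), followed by mean levels of 6.38 ± 0.23 for MYBL2, 5.39 for LIN54, 5.37 for LIN52, 5.21 for LIN37, 3.24 for RBBP4, 3.04 for MYBL1 and 2.53 for LIN9. Below FOXM1 this order held for the means only. LIN37, at 3.42 and 6.99 CPM per kb, overlapped MYBL2, LIN54, LIN52 and RBBP4, and RBBP4, at 2.49 and 3.99, overlapped MYBL1 and LIN9. In DMSO libraries MYBL2 was highest, at 50.4 ± 15.5 CPM per kb, above FOXM1 at 29.2 ± 3.43. MYBL1 at 11.8, LIN54 at 10.1 and RBBP4 at 8.28 followed, where LIN54 overlapped both MYBL1 and RBBP4. Then came, without overlap, LIN52 at 5.91, LIN9 at 4.80 and LIN37, lowest, at 1.84. Lengths are all exonic bases of a gene in GENCODE 29, which may be longer than the transcripts these cells make.

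Within a library, the level of a gene relative to the core does not depend on how libraries are scaled. MYBL2 stood at log2 ratios of -0.09 and -0.29 to the mean log2 CPM of the 5 core subunits in the YW-LF libraries, against 2.14 and 2.63 in the DMSO libraries. MYBL1 stood at 0.19 and 0.06 in YW-LF and at 1.93 and 1.46 in DMSO. For both genes the groups were far apart relative to their spread, with differences of -2.57 and -1.57. The core mean gives LIN37, higher in YW-LF and of uncertain level, the same weight as each other subunit. This makes the differences larger than a core without LIN37 would, and such a core was not computed. FOXM1 stood at 1.44 and 3.15 in YW-LF, on either side of 2.39 and 2.49 in DMSO. MYBL2 relative to FOXM1 was at -1.52 and -3.44 in YW-LF and at -0.26 and 0.14 in DMSO. These ratios use CPM not divided by exonic length, so their heights do not rank the genes, and only differences between libraries are read. They are given as values, with no test.

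**Figure D3:**
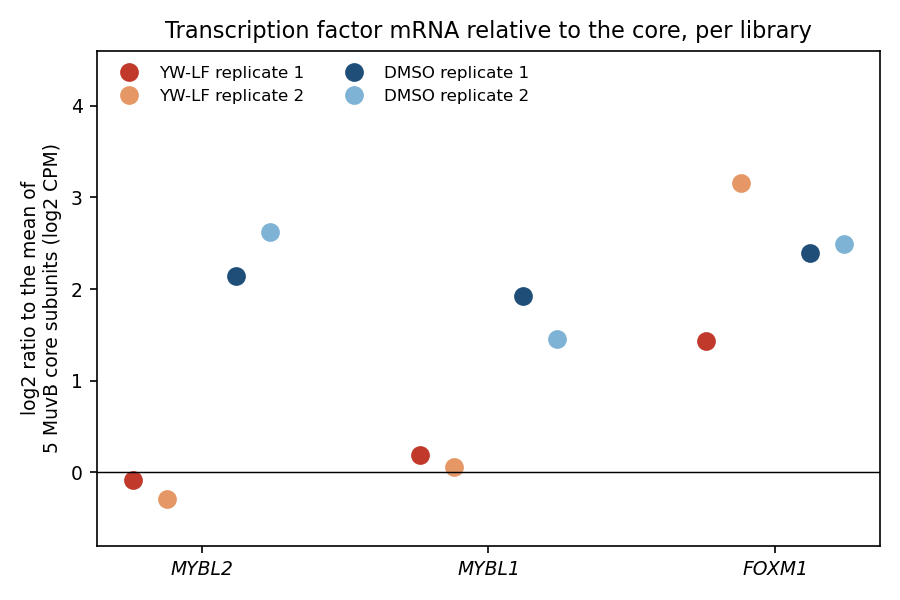
Log2 ratio of MYBL2, MYBL1 and FOXM1 to the mean log2 CPM of the 5 MuvB core subunits (y axis) in each library. CPM are not divided by exonic length, so heights are not compared between genes. Both YW-LF points lie near 0 for MYBL2 and MYBL1, below all DMSO points, while those of FOXM1 lie below and above the DMSO points.

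The partners of MuvB went more than one way. Of 13 partner and regulator genes, 8 were lower in both treated libraries and 2 were higher (DYRK1A and FZR1), with a median log2 fold change of -0.79, where 27.8% of all genes tested were lower in both and 28.0% higher in both. None passed in edgeR, 4 were lower at an unadjusted p under 0.05 (MYB, CCNA2, PLK1 and RBL1), and DESeq2 called the same 4 lower and 0 higher. The shares over all genes were 9.01% lower at this unadjusted p and 4.4% lower by DESeq2. RBL1, which encodes p107, was at 35.9 and 28.8 CPM in YW-LF against 94.0 and 96.5 CPM in DMSO (log2 fold change -1.56, SE 0.35, edgeR adjusted p = 0.121). RBL2, which encodes p130, the main pocket protein of DREAM in resting cells, was at 48.5 and 20.3 CPM in YW-LF and 77.1 and 70.5 CPM in DMSO (-1.10, SE 0.48, edgeR adjusted p = 0.259). Both pocket protein genes were lower in both treated libraries. For RBL2 the size rested on single libraries, at -0.62 with YW-LF replicate 2 left out and -1.87 with YW-LF replicate 1 left out (edgeR adjusted p = 0.0019).

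Among the E2F and DP partners, E2F4 had 53.8 and 130 CPM in YW-LF and 120 and 122 CPM in DMSO. On this TMM scale the treated libraries lay on either side of the controls, as for FOXM1. With library size as the only scaling, E2F4 was at 67.2 and 109 CPM in YW-LF and 129 and 108 CPM in DMSO. YW-LF replicate 2 then lay between the controls, unlike for FOXM1. E2F5 was at 18.2 and 12.1 CPM in YW-LF and 16.5 and 10.9 CPM in DMSO. TFDP1 and TFDP2, the DP subunits, had log2 fold changes of -1.06 (SE 0.44) and -0.60 (SE 0.35). DYRK1A, the kinase of LIN52, was at 27.6 and 46.5 CPM in YW-LF and 16.7 and 23.8 CPM in DMSO (0.87, SE 0.43, edgeR adjusted p = 0.301).

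Of the kinases and the ligase that act on B-MYB and FOXM1, PLK1, a mitotic kinase that activates FOXM1, was at 51.9 and 61.5 CPM in YW-LF and 155 and 210 CPM in DMSO (-1.68, SE 0.38, edgeR adjusted p = 0.121). CCNA2, the cyclin A that with CDK2 phosphorylates B-MYB, was at 48.8 and 31.8 CPM in YW-LF and 162 and 147 CPM in DMSO (-1.94, SE 0.39, edgeR adjusted p = 0.121). Both also belong to the late targets below. CDK2 itself had a log2 fold change of -0.79 (SE 0.38), and FZR1, the activator of the ligase APC/C that marks FOXM1 for destruction after mitosis, one of 0.33 (SE 0.34).

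Most genes that MuvB, B-MYB and FOXM1 are known to activate in G2 and mitosis were lower. Of 37 such late targets, 33 lay below DMSO in both YW-LF libraries and 1 above (CKS2), against 27.8% and 28.0% of all genes tested, and the median log2 fold change was -0.95. At an unadjusted p under 0.05, 20 were lower and 0 higher (9.01% and 11.5% of all genes), DESeq2 called 15 lower and 0 higher (4.4% and 5.94% of the genes it tested), and edgeR called 0 after adjustment. With library size as the only scaling, 31 lay below. The 6 of lowest p were ANLN (-2.43, SE 0.41), KIF20A (-2.42, SE 0.44), BUB1B (-2.00, SE 0.37), MKI67 (-2.66, SE 0.49), CCNA2 and CENPE (-1.75, SE 0.37), each with an edgeR adjusted p of 0.121. ANLN and KIF20A act in cytokinesis, BUB1B in the spindle checkpoint, CENPE moves chromosomes, and MKI67 is the proliferation marker Ki-67.

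On the TMM scale, the late targets that overlapped DMSO did so in the manner of FOXM1. PTTG1 (securin), CCNB1 (cyclin B1) and CENPA (the centromeric histone) were the 3, and they are outside the rule for naming genes. CCNB1 was at 102 and 217 CPM in YW-LF and 169 and 145 CPM in DMSO, PTTG1 at 91.6 and 249 CPM in YW-LF and 129 and 109 CPM in DMSO, and CENPA at 8.91 and 18.0 CPM in YW-LF and 16.0 and 13.03 CPM in DMSO. In each, replicate 1 of YW-LF was below both controls and replicate 2 above both. CKS2, a small CDK-binding protein, likewise chosen after its values were seen, was at 166 and 623 CPM in YW-LF and 137 and 132 CPM in DMSO. Of the 37 late targets, 27 were higher in YW-LF replicate 2 than in replicate 1 (73.0%), as were 6 of the 8 members and 49.5% of all genes tested. These counts depended on the scaling, with TMM factors of 1.25 and 0.838 for YW-LF replicates 1 and 2. With library size as the only scaling the direction turned, and most late targets were lower in YW-LF replicate 2 than in replicate 1. Of the members, FOXM1, LIN37 and RBBP4 then stayed higher in it, whereas MYBL2, MYBL1 and LIN54 were lower.

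**Figure D4:**
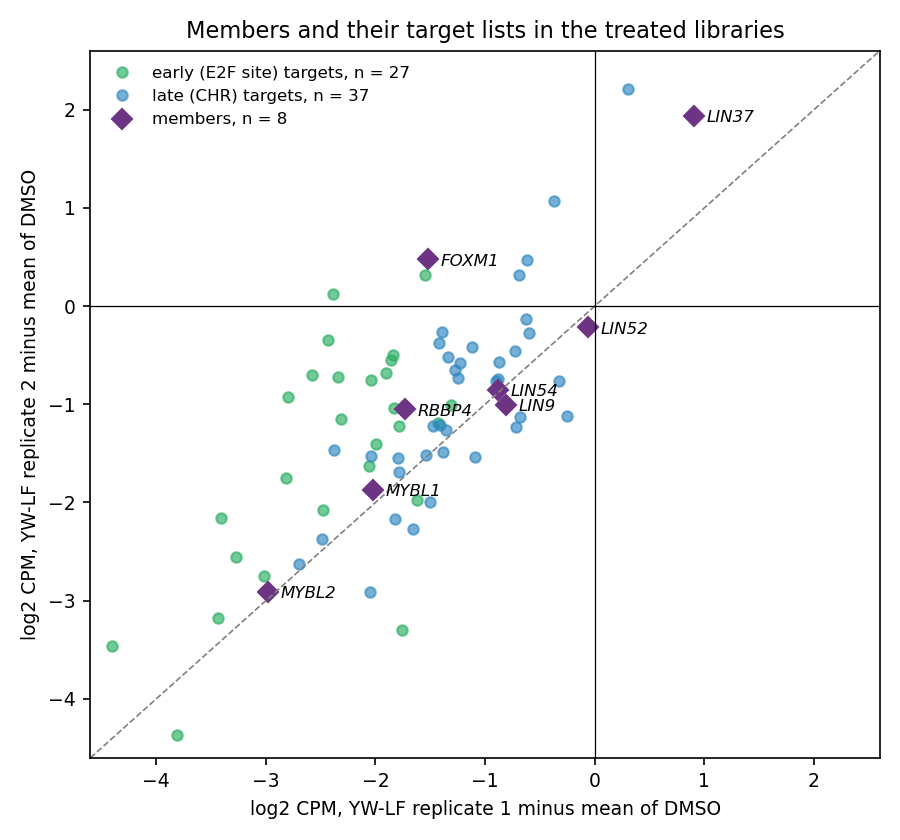
Log2 CPM of YW-LF replicate 1 (x axis) and replicate 2 (y axis), each minus the mean of the DMSO libraries, for the 8 members, 37 late targets and 27 early targets; both axes share the same DMSO libraries, and the dashed line marks equal values. On the TMM scale MYBL2 and MYBL1 lie near the line, whereas FOXM1 lies at -1.52 and 0.48.

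Early targets, the E2F genes of G1/S that DREAM represses in resting cells, were lower as well. Of 27, 25 were below DMSO in both treated libraries and 0 above, against 27.8% and 28.0% of all genes tested, with a median log2 fold change of -1.59. At an unadjusted p under 0.05, 19 were lower and 0 higher (9.01% and 11.5% of all genes), DESeq2 called 14 lower and 0 higher (4.4% and 5.94% of the genes it tested), and edgeR called 0 of the 27 after adjustment. The 4 of lowest p were CCNE2 (cyclin E2, -4.08, SE 0.43), CLSPN (a replication checkpoint adaptor, -3.32, SE 0.39), UHRF1 (which maintains DNA methylation, -3.86, SE 0.48) and MCM3 (a helicase subunit, -2.88, SE 0.39), each with an edgeR adjusted p of 0.117. MCM7 and CDC45, also of the replicative helicase and outside the naming rule, overlapped DMSO, with MCM7 at 79.5 and 291 CPM in YW-LF and 229 and 237 CPM in DMSO. Of the 27, 24 were higher in YW-LF replicate 2 than in replicate 1 on the TMM scale, and fewer with library size as the only scaling. Leaving out YW-LF replicate 2 gave a median of -2.33, and leaving out replicate 1 one of -1.21.

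Of the 32 late targets with a promoter used here, 22 held a CHR, and of 24 early targets 16 held an E2F word. Among the 6 late targets of lowest p, KIF20A, CCNA2 and CENPE held no CHR and are not shown. The stretches below are examples chosen among promoters that hold such an element, with PLK1 and CKS2 from outside the 6. The first 5 are late targets, with the CHR in capitals (TTTGAA, or TTCAAA where it lies on the other strand), and the last 2 are early targets, with an E2F word in capitals (GCGGGAAA is TTTCCCGC on the other strand).
ANLN: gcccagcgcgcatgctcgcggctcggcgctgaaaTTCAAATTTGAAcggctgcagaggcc
BUB1B: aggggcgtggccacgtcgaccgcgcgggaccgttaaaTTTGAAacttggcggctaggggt
MKI67: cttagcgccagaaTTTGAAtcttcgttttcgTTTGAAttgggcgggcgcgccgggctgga
PLK1: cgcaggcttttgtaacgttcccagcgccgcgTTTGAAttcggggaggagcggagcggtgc
CKS2: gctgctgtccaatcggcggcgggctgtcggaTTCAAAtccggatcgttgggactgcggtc
UHRF1: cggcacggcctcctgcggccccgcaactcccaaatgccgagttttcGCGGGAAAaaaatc
MCM3: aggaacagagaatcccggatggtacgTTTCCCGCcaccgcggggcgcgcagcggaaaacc
In RefSeq (GRCh38.p14) they lie at chr7:36389802-36389861, chr15:40161009-40161068, chr10:128126424-128126483 (minus strand), chr16:23678829-23678888, chr9:89311135-89311194, chr19:4909441-4909500 and chr6:52284883-52284942 (minus strand), the others being on the plus strand. All but the MCM3 stretch end at the annotated start. CKS2, higher in both treated libraries, carries a CHR like the lower genes ANLN, BUB1B, MKI67 and PLK1.

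Over windows of 300 bases (250 before the start and 50 from it), the CHR was in 59.5% of the 42 windows of late targets and 3.03% of the 33 windows of early targets, against 15.2% of all 35116 windows. An E2F word was in 9.52% of late and 51.5% of early windows, against 3.31% of all. CCAAT, the NF-Y box common in cell cycle promoters, was in 78.6% of late and 72.7% of early windows, against 34.6% of all. AACGG, as bound by MYB proteins, was in 47.6% of late and 27.3% of early windows, against 19.7% of all, and TAAACA, as bound by forkhead proteins, in 9.52%, 9.09% and 12.3%. All words were searched on both strands, windows of a gene can overlap, and AACGG can adjoin a CHR. The lists were written from knowledge of such sites, so these shares describe the lists and support nothing further.

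**Figure D5:**
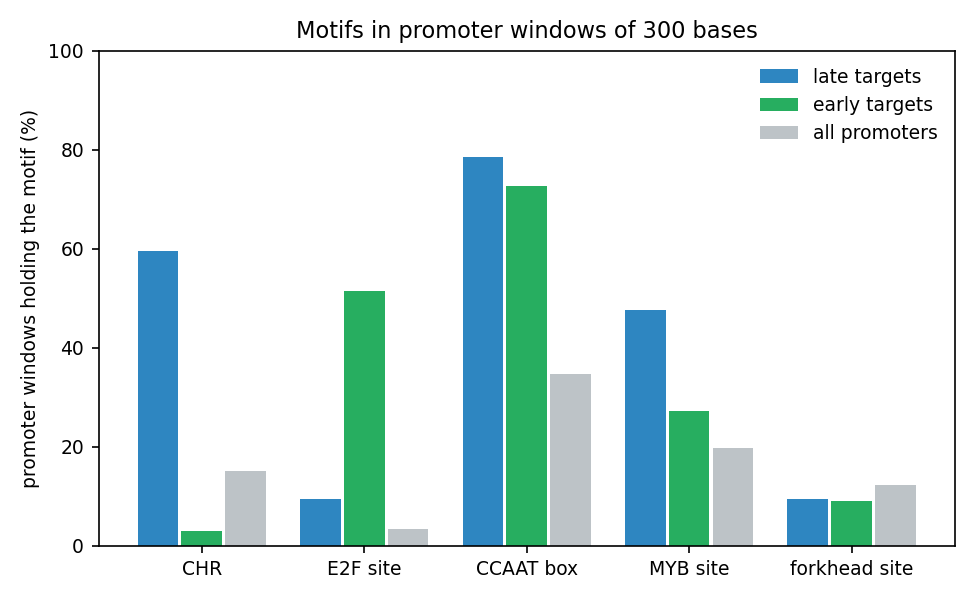
Share of RefSeq promoter windows of 300 bases (y axis, percent) that hold each motif on either strand, for late targets (42 windows), early targets (33 windows) and all 35116 windows. The CHR stands out in late targets at 59.5% and the E2F word in early targets at 51.5%.

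Among 10808 other genes with a mean of at least 5 CPM, those nearest to MYBL2 in their pattern over the 4 libraries, by the distance between log2 CPM profiles each centred on its mean, were RBPMS2 (0.24), KRT80 (0.26), SORBS2 (0.28) and SPRY1 (0.41). KRT80, for example, was at 14.8 and 13.1 CPM in YW-LF and 101 and 148 CPM in DMSO. Nearest to FOXM1 were PMF1 (0.08), RUVBL1 (0.18), NOL12 (0.18) and ARHGEF28 (0.19). RUVBL1 was at 43.9 and 160 CPM in YW-LF and 113 and 117 CPM in DMSO, so on the TMM scale it too lay on either side of the controls. With 4 libraries these distances describe the pattern and carry no test.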

How the data were processed

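The table deposited by the authors holds raw gene counts: its values are whole numbers with different library totals. Libraries were made with a Hieff NGS mRNA kit from 1.4 µg of total RNA, per the labels' protocols. Aligner, counting program and annotation: not given in the sources used here. GRCm38 and mm10, both mouse builds, are named in the submitters' processing notes, whereas all 20263 identifiers are human Ensembl genes. Symbols matched 20148 of them. A second table held the same DMSO values (40526 of 40526). A further 2 columns of per-sample values match no label and were not used.

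Computed here were TMM-scaled CPM, log2 CPM (prior count 2) and the comparison of YW-LF with DMSO by the quasi-likelihood test of edgeR 4.0.16 (R 4.3.3) on all 4 libraries, after filterByExpr (13816 genes) and with Benjamini-Hochberg adjustment over all of them, threshold 0.05. The SE is the log2 fold change divided by the square root of F. Alternatives used DESeq2 1.42.0, limma 3.58.1, other scalings and filters, a replicate block and each library left out. Of these fits, only the main edgeR fit was run on simulated data, and its outcome there is not given here. Coordinates and lengths are from GENCODE 29 (GRCh38), promoters from RefSeq (GRCh38.p14).

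The 8 members and the gene lists were chosen with earlier results of these data known. Named were all members, all 13 partners, the 6 late and 4 early targets of lowest p, and the 4 genes nearest in pattern to MYBL2 and to FOXM1.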

Additional observations from a re-analysis of the deposited data

How the results depend on the processing

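No gene was called by edgeR in the main analysis, with other scalings, with at least 10 counts in every sample, without mitochondrially encoded genes, or by limma-voom. DESeq2 called 1464 genes, 2 of them members, and edgeR on all genes with at least 1 count called 275, again with 2 members. With 1 library left out, the calls ranged from 64 to 5882 genes and from 0 to 5 members, and in such a fit the pair that remains sets the spread. With the replicate number as a block, 331 genes and 2 members were called. The labels tie the numbers to no batch, and the deviations of same-numbered libraries correlated at 0.04. With 2 libraries per group this correlation cannot show whether the numbers pair the samples, which remains unknown. Directions of the 8 members held in every fit except for FOXM1, which ranged from -1.54 to 0.47 with a library left out. In those fits E2F4 ranged from -1.18 to 0.10, E2F5 from -0.18 to 0.49, PMF1 from -1.49 to 0.42, RUVBL1 from -1.41 to 0.47, NOL12 from -1.34 to 0.53 and ARHGEF28 from -1.53 to 0.58. RBBP7 was at -1.34 with YW-LF replicate 2 left out and -0.06 with replicate 1 left out, TFDP1 at -0.68 without YW-LF replicate 1, and DYRK1A at 0.44 and FZR1 at 0.18 without YW-LF replicate 2. FOXM1 was at -0.50 in limma-voom and -0.52 with the replicate block. The cause was not tested. The difference in ratio to the core ranged from -2.81 to -2.33 for MYBL2, from -1.80 to -1.33 for MYBL1 and from -1.003 to 0.71 for FOXM1.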

Other observations

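Among the 32 late targets with a promoter used here, the 22 with a CHR had a median log2 fold change of -1.33 and the 10 without one a median of -0.86. The 18 with AACGG had a median of -0.85 and the 14 without it a median of -1.61. Among 24 early targets, the 16 with an E2F word had a median of -1.65 and the 8 without one a median of -1.43. With the shorter word GGCGGGA the order of these medians was the opposite, at -1.59 for the 17 with it and -1.79 for the 7 without it. These are values with no test.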
